A study of Mus musculus with 14 samples.

Results

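The RLTR10 elements described here are the mouse endogenous retrovirus (ERV) subfamilies whose names begin with RLTR10, other than RLTR10C. They were 8 subfamilies of long terminal repeats (LTRs), named RLTR10, RLTR10A, RLTR10B, RLTR10B2, RLTR10D, RLTR10D2, RLTR10E and RLTR10F, and the internal part RLTR10-int. These 9 subfamilies stood among 1095 transposable element (TE) subfamilies in the table of spermatogonia (Spg) and 1098 in that of spermatocytes (Spc), and held 9103 of 3725827 TE copies. The rule uses the name of a subfamily and no measured value. The libraries held polyadenylated RNA of germ cells sorted from C57Bl6/J mouse testes, in 4 groups: 3 Dnmt3C KO/KO (KO) and 3 wild-type (WT) libraries of Spg, and 4 KO and 4 WT libraries of Spc. No treatment was given, and KO and WT animals were littermates. Spg came from P14 testes (Ep-CAM+, B2M-, DAPI-), and Spc from mice older than 20 days, sorted by Hoechst staining without propidium iodide-positive cells. KO spermatocytes arrest in pachytene whereas the WT sort also held later cells, so genotype and cell stage cannot be told apart in Spc, and stage, age and sorting procedure cannot be told apart between Spg and Spc.

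A provirus of this kind carries 2 identical LTRs around an internal part, and transcription starts in the 5′ LTR and ends in the 3′ LTR. Recombination between the LTRs leaves a solitary LTR, which is the form of most copies in the genome. In the male germline, DNMT3C, guided by piRNAs, methylates promoters of young retrotransposons before birth. LTRs also serve as promoters and enhancers of host genes, and RLTR10B LTRs have been described as binding sites of the meiotic activator A-MYB (Mybl1) in WT spermatocytes.

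The letters below are those of the promoters in which a gene start and a RLTR10B or RLTR10B2 LTR coincide, since these windows carry the WT result given further on. The windows are RefSeq sequences of GRCm38.p6, written 5′ to 3′ on the gene's strand. Each runs from 250 bases before the annotated start to 50 bases after it, or to 30 bases after it for the protein-coding gene 1700010B08Rik. They belong to the 4 genes with the highest level in WT Spc among those whose window lies over such a LTR on the opposite strand, and to 1 gene on the strand of its LTR, Gm15389. Capitals mark AACTG, the core of the MYB motif, read on the gene's strand, or CAGTT, which is AACTG on the other strand.
1700010B08Rik, chr2:173719165-173719444, plus strand: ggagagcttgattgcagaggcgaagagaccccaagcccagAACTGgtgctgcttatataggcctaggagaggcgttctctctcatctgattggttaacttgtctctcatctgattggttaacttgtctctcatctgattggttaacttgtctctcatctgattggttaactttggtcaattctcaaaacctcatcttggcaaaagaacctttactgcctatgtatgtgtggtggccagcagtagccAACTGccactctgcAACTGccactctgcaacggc
Gm19589, chr1:88551267-88551566, plus strand: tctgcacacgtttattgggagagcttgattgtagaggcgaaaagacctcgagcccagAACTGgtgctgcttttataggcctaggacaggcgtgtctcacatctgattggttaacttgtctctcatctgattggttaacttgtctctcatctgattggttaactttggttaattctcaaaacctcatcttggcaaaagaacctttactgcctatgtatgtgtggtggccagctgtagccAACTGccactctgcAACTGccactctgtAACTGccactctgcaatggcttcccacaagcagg
Gm40383, chr12:33936255-33936554, minus strand: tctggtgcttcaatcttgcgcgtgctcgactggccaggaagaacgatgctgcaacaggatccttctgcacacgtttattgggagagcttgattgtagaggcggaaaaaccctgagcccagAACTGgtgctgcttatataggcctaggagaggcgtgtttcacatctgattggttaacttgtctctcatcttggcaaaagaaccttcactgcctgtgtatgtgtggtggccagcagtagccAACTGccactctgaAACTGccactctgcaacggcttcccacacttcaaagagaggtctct
1700016K05Rik, chr17:66714206-66714505, plus strand: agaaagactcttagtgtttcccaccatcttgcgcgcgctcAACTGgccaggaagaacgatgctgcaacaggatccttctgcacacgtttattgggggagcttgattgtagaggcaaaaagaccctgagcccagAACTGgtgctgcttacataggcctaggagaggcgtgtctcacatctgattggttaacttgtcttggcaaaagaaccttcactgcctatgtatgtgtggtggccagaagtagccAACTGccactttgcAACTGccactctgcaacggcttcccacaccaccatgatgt
Gm15389, chr1:107686750-107687049, plus strand: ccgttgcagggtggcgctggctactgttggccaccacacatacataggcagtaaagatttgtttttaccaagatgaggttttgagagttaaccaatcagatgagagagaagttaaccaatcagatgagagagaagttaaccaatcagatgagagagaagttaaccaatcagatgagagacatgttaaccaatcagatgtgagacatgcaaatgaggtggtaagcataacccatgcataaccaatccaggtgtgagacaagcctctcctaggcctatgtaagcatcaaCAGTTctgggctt
Of these windows, 280, 294, 269, 262 and 300 bases lay inside the LTR, in the order shown. The 4 LTRs that lie opposite to their gene were 93.2% to 95.7% identical to one another over 187 to 272 aligned bases, so their letters are not independent. Each of the 4 held AACTG on either side of the annotated start, with 3, 4, 3 and 4 matches on the gene's strand and 0 on the other. The window of Gm15389 held 1 match, on the other strand.

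The total count ran from 40555726 to 53323651 per library. Values of subfamilies and genes are CPM (counts scaled to a common library size, with TMM factors), and those of copies are reads recovered from the deposited TPM. The WT Spc library of replicate 3 and the KO Spc library of replicate 2 stood apart from the rest of their groups. In WT Spc, the summed level of 7 pachytene markers was lowest in replicate 3 (8770 CPM against 14016 to 16070) and that of 7 early meiotic markers was highest there (2368 against 1314 to 1501). In KO Spc, the early meiotic sum was lowest in replicate 2 (1197 CPM against 2018 to 2298). Pachytene markers summed to 187 to 319 CPM in KO Spc, with 7 of 7 lower than in WT, and those of spermatids to 2.35 to 10.8 CPM against 62.4 to 1458. Spermatogonial markers summed to 423 to 1104 CPM in KO and 36.4 to 269 in WT Spc, with 5 of 7 higher in KO. The 5 Leydig cell markers (53.4 to 318 CPM in KO, 13.9 to 29.5 in WT), the 4 of macrophages (17.0 to 102 against 2.50 to 5.08) and 2 of 3 of peritubular cells were higher in KO Spc, while no Sertoli cell marker passed (56.9 to 210 against 27.0 to 89.9). In Spg, no marker that could be tested passed by edgeR, which left out 1 of the 7 pachytene and 4 of the 6 spermatid markers, 1 of the 5 of Leydig cells and 2 of the 4 of macrophages. The pachytene sum was lower in every KO Spg library (129 to 142 CPM) than in the WT Spg libraries (248, 464 and, in replicate 2, 1544). The part of these differences in the results below was not tested beyond the fits that leave libraries out. Dnmt3c itself, read at 1.40 ± 0.516 CPM (SD, n = 3) in KO and 1.27 ± 0.288 in WT Spg, and at 1.07 ± 0.0829 (n = 4) and 0.63 ± 0.278 in Spc, did not show the deletion at the level of RNA.

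In Spg, no RLTR10 subfamily passed the threshold between KO and WT, which was an adjusted p under 0.01 in edgeR's quasi-likelihood test over all genes and TE subfamilies. The background in this comparison was 0.76% of 921 TE subfamilies. At an unadjusted p under 0.05, 5 of the 9 members passed (6.19% of all subfamilies), and 8 of 9 fold changes were positive. The median log2 fold change was 0.75 over the members and -0.03 over all TE subfamilies. RLTR10B stood at 41.2, 61.7 and 40.5 CPM in KO and at 29.7, 20.5 and 13.8 in WT. RLTR10B2 stood at 70.0, 80.7 and 61.9 CPM in KO and at 55.3, 26.6 and 23.9 in WT. RLTR10-int stood at 112, 135 and 105 CPM in KO and at 61.5, 65.0 and 67.6 in WT. The groups of these 3 subfamilies, of RLTR10F and of RLTR10A did not overlap, against 7.71% of all subfamilies. The log2 fold changes were 1.16 ± 0.31 (SE, n = 3 per group, adjusted p = 0.220) for RLTR10B, 1.01 ± 0.32 (0.363) for RLTR10B2 and 0.86 ± 0.14 (0.0526) for RLTR10-int. The related RLTR10C, an LTR of the same ERVK group that served for comparison, rose by 3.03 ± 0.22 (adjusted p = 0.0026), from 30.4 ± 4.03 to 248 ± 66.8 CPM. DESeq2 called RLTR10-int (2.61% of all TE subfamilies), and edgeR with the replicate number as a block called none.

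In Spc, 6 of the 9 RLTR10 subfamilies differed between KO and WT, 5 of them higher and 1 lower in KO, beside 25.7% of 929 TE subfamilies, 11.7% higher and 14% lower. In bulk libraries such as these, a change in the number of expressing cells and a change in RNA per cell cannot be told apart. RLTR10B stood at 257, 94.0, 236 and 291 CPM in KO and at 11.96, 11.3, 30.4 and 9.32 in WT, with KO replicate 2 lowest and WT replicate 3 highest. RLTR10B2 stood at 390, 125, 335 and 452 CPM in KO and at 7.72, 8.497, 40.2 and 6.23 in WT. RLTR10-int stood at 285, 137, 272 and 321 CPM in KO and at 42.4, 40.02, 60.0 and 39.3 in WT. No library of either group overlapped the other in these subfamilies, nor in 8 of the 9 members (45.7% of all TE subfamilies). The log2 fold changes were 3.80 ± 0.49 (SE, n = 4 per group, edgeR adjusted p = 0.000111) for RLTR10B and 4.37 ± 0.70 (0.0004) for RLTR10B2. RLTR10F, an LTR at 0.578 ± 0.31 CPM in WT, rose by 2.99 ± 0.47 (0.000345), RLTR10-int by 2.48 ± 0.29 (6.61e-05) and RLTR10D by 1.65 ± 0.37 (0.0029). RLTR10D was no longer past the threshold without WT replicate 1 (1.54, adjusted p = 0.0128) or WT replicate 4 (1.46, 0.012), or with replicates 1 and 4 summed. RLTR10E (1.29 ± 0.42, adjusted p = 0.0176), RLTR10 (0.60 ± 0.22, 0.0312) and RLTR10A (0.22 ± 0.43, 0.654) did not pass. RLTR10D2 was the member that fell, from 6.93, 15.3, 8.17 and 8.07 CPM in WT to 1.19, 2.02, 1.70 and 1.07 in KO (log2 fold change -2.68 ± 0.40, adjusted p = 0.000275). This fall was that of 1 copy, RLTR10D2_dup160, and the reads of the other RLTR10D2 copies were higher in each KO than in any WT Spc library (1.16 to 2.19 against 0.417 to 0.695 CPM, a split made after the data had been seen and not tested). The median log2 fold change was 1.65 over the members and 0.10 over all TE subfamilies. DESeq2 (41.7% of all TE subfamilies) and edgeR scaled by library totals (35.1%) each called 8 of the 9, and library totals moved the median of all genes from 0.11 to 0.79.

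**Figure D1:**
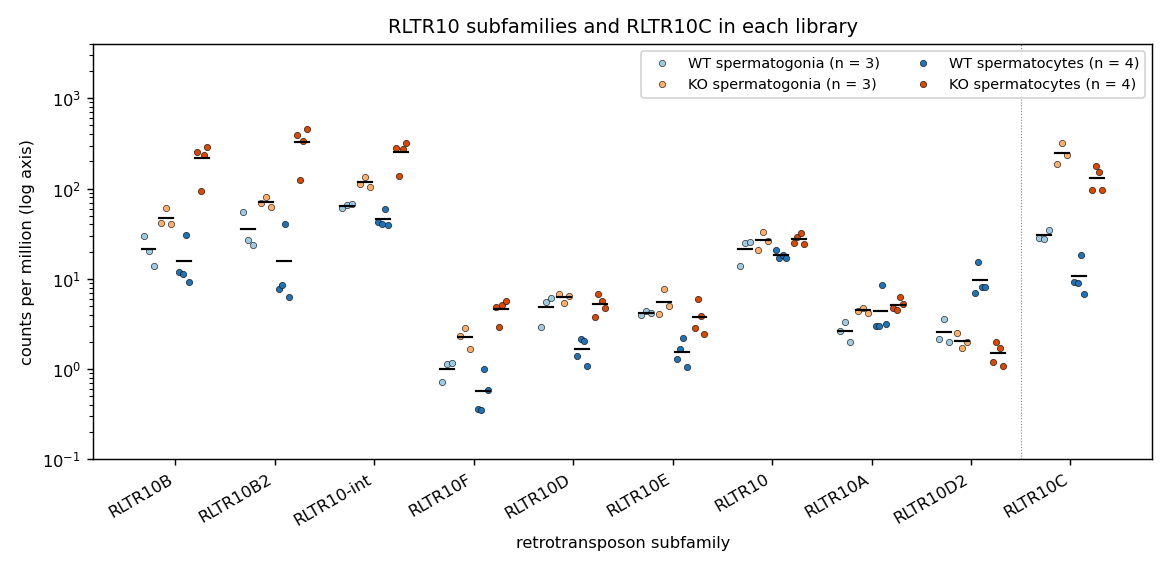
CPM (log axis) of the 9 RLTR10 subfamilies and of RLTR10C in each of the 14 libraries, 1 point per library and a line at the mean of each group; the Spg and Spc libraries were scaled separately, so levels are to be read within a stage. In Spc the KO points of RLTR10B (94.0 to 291 CPM) lie above all WT points (9.32 to 30.4), while those of RLTR10D2 (1.07 to 2.02) lie below them (6.93 to 15.3).

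The KO effect was larger in Spc than in Spg for 3 subfamilies and lower for 1, by the interaction term over all 14 libraries, beside 6.44% of 978 TE subfamilies, 1.64% higher and 4.81% lower. The log2 difference of the KO effects was 2.56 ± 0.63 (SE, edgeR adjusted p = 0.00594) for RLTR10B, 3.28 ± 0.87 (0.00837) for RLTR10B2, 1.56 ± 0.36 (0.00439) for RLTR10-int and -2.43 ± 0.54 (0.00323) for RLTR10D2. The value of RLTR10D2 includes that copy. RLTR10C had a difference of 0.51 ± 0.48 (adjusted p = 0.4). These calls lay near the threshold. Leaving out single libraries, RLTR10B2 kept its call only without WT Spg replicate 2 or 3, WT Spc replicate 3 or KO Spc replicate 2, with adjusted p-values up to 0.0208 in the other 10 fits. RLTR10B lost its call without WT Spc replicate 1, 2 or 4, KO Spg replicate 1 or 3 or WT Spg replicate 1 (adjusted p = 0.011 to 0.0155). RLTR10-int lost it without KO Spg replicate 3 (0.0115), and RLTR10D2 without KO Spg replicate 1, WT Spg replicate 1 or WT Spg replicate 3 (0.0105 to 0.0124). With Spc replicates 1 and 4 summed, the 3 positive calls were lost (adjusted p = 0.0194 to 0.0245), and with p adjusted over TE subfamilies alone all 4 were lost (0.0206 to 0.0338). Scaled by library totals, RLTR10D2 lost its call (-1.68, adjusted p = 0.0328). The 4 differences kept their sign in every one of these fits.

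**Figure D2:**
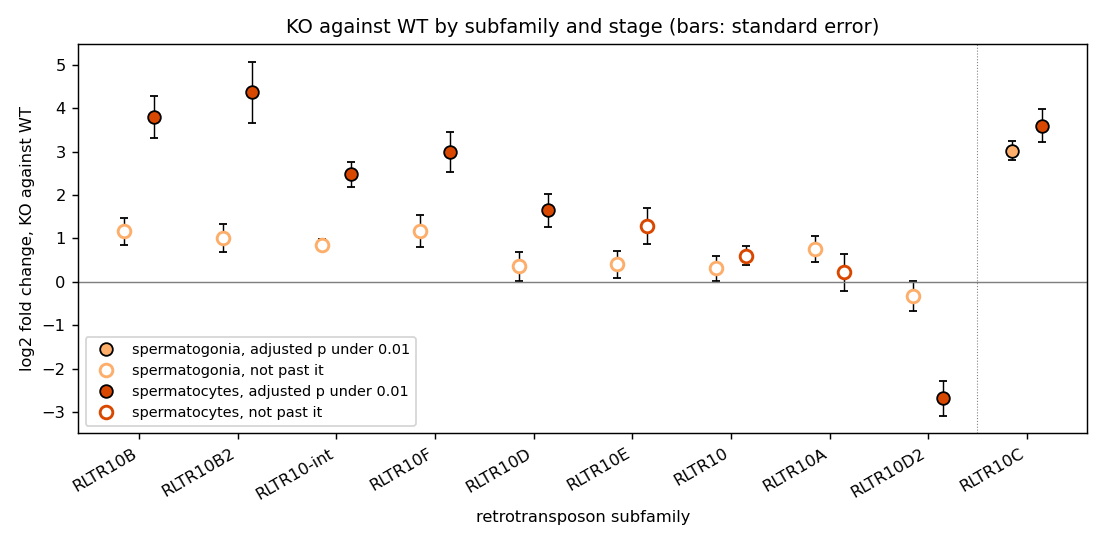
Log2 fold change of KO against WT (bars, SE) for each RLTR10 subfamily and RLTR10C in Spg and in Spc, with filled points for an adjusted p under 0.01. RLTR10B lies at 1.16 in Spg and 3.80 in Spc, whereas RLTR10C lies at 3.03 and 3.60 and RLTR10D2 at -0.32 and -2.68.

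The ratio of RLTR10B to RLTR10C counts sets these relatives against each other within a library and does not depend on the scaling. In Spg its log2 was -2.37 ± 0.18 (SD, n = 3) in KO and -0.57 ± 0.71 in WT, without overlap between the groups (two-sided exact permutation test, p = 0.1, the smallest p that 3 against 3 allows). In Spc it was 0.67 ± 1.15 (n = 4) in KO and 0.47 ± 0.18 in WT, and the groups overlapped (exact permutation p = 0.886). Between KO Spc and KO Spg the ratio differed by 3.04, with values of -0.94 to 1.602 and of -2.55 to -2.18 (exact permutation p = 0.0571, the smallest that 4 against 3 allows, and 0.15 adjusted over the 3 tests). KO Spg libraries thus held more RLTR10C than RLTR10B, and 3 of the 4 KO Spc libraries the reverse, replicate 2 being the exception.

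From WT Spg to WT Spc, 1 of the 9 subfamilies changed, RLTR10D2, which rose (25.5% of 978 TE subfamilies were called, and 22.7% were called as higher in Spc). With CPM scaled over all 14 libraries, it stood at 2.12 ± 0.663 (SD, n = 3) in WT Spg and 11.2 ± 4.8 (n = 4) in WT Spc. The difference was 2.40 ± 0.40 (SE) on the log2 scale, with an adjusted p by edgeR of 0.000183. The rise was again that of RLTR10D2_dup160, with 115 of 329 RLTR10D2 reads in WT Spg and 1436 of 1514 in WT Spc, whereas the other copies stood lower in each WT Spc than in any WT Spg library (0.417 to 0.695 against 1.05 to 1.62 CPM, not tested). RLTR10A (1.25 ± 0.41, adjusted p = 0.0149), RLTR10D (-1.04 ± 0.36, 0.0213) and RLTR10E (-0.94 ± 0.39, 0.047) did not pass. RLTR10B (0.07 ± 0.44, 0.902) and RLTR10B2 (-0.66 ± 0.59, 0.348) stood at 17.5 ± 6.35 and 29.0 ± 14.1 CPM in WT Spg and at 18.3 ± 11.9 and 18.4 ± 19.5 in WT Spc. Without WT Spc replicate 3, RLTR10B2 was lower in WT Spc (-1.73, adjusted p = 0.00237), and the value of RLTR10B was -0.47 (0.268). Without WT Spg replicate 1, RLTR10D passed as well (-1.46, 0.00402). Scaled by library totals, the median of all genes was -0.76 and not 0.02, and RLTR10B and RLTR10 had negative values.

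From KO Spg to KO Spc, RLTR10B and RLTR10-int rose, beside 1.43% of 978 TE subfamilies, all of them higher in Spc. RLTR10B went from 40.3 ± 10.3 (SD, n = 3) to 249 ± 97.5 CPM (n = 4), which is 2.63 ± 0.48 (SE) on the log2 scale with an adjusted p by edgeR of 0.00442, and RLTR10-int from 99.2 ± 13.8 to 288 ± 90.3 CPM (1.54 ± 0.27, 0.00306). RLTR10B2 (2.63 ± 0.65, adjusted p = 0.0247) and RLTR10F (1.46 ± 0.43, 0.0491) did not pass, nor did RLTR10C (-0.48 ± 0.33, 0.398). The 4 RLTR10 subfamilies named here and RLTR10A did not overlap between the groups (19.9% of all TE subfamilies). The calls of both RLTR10B and RLTR10-int were lost without KO Spc replicate 1 or 4 or without any 1 of the 3 KO Spg libraries (adjusted p = 0.0127 to 0.0423), in the blocked fit by replicate number (0.0233 and 0.0175), and under library totals, whereas both remained higher in every one of these fits. This comparison shares its libraries with the genotype comparisons above.

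The 9103 copies differed widely in number and length between subfamilies. RLTR10-int had 2617 copies with a median length of 688 bases, RLTR10 2930 (399), RLTR10B2 854 (366), RLTR10A 800 (389), RLTR10D 491 (362), RLTR10F 482 (311), RLTR10B 477 (262), RLTR10E 227 (311) and RLTR10D2 225 (351). By GENCODE M21 on GRCm38, 76.6% of the copies were intergenic, 20.7% lay in introns and 2.7% touched exons. The internal part that most often adjoined an LTR on the same strand (within 50 bases) differed between the subfamilies. It was MMERVK10C-int for RLTR10B (27% of its copies), RLTR10B2 (12.1%), RLTR10E (22%), RLTR10F (19.7%) and RLTR10C (32%). It was RLTR10-int for RLTR10 (57.1%) and RLTR10A (20.8%), IAP-d-int for RLTR10D (43.8%) and MMERVK10D3_I-int for RLTR10D2 (37.8%). At least 1 read of any library was assigned to 3766 copies, and none to 5337.

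In Spc, 182 of the 647 RLTR10 copies that passed the filter (a mean TPM of at least 0.5) differed between KO and WT, 147 higher and 35 lower in KO, or 28.1% beside 11.2% of 241893 TE copies (limma on log2(TPM + 0.1), adjusted p under 0.01, 7.17% higher and 4.06% lower). RLTR10B2 had 44 copies higher and 2 lower, RLTR10-int 41 and 9, RLTR10B 36 and 9, and RLTR10 14 and 9. The median on the log2(TPM + 0.1) scale was 2.73 over these members and 1.39 over all copies tested. Values on this scale can lie above those from reads, as for RLTR10B_dup453 (8.67 against 5.74 by edgeR on reads). Of the 647, 416 had at most 3 reads in each library of 1 group, as had 136068 of all copies tested, and a copy read in 1 group alone passed the filter through that group. With CPM of the recovered reads and groups of at most 3 reads in each library set at 3 reads, and copies at that floor in both groups left out, the medians were 0.57 over 591 members and -0.31 over 192077 copies. edgeR on the recovered reads tested 143 of these copies and called 97 higher and 25 lower, beside 65.4% of 28404 copies. The number by limma was 112 without WT replicate 1, and 121 without WT replicate 4 or KO replicate 3, and 80 with the replicate number as a block. In Spg, 524 copies passed the filter and none was called (limma, 0.00911% of 252388), with 70 at an unadjusted p under 0.05 (5.31% of all copies tested), while edgeR on reads called 19 of 125, all higher in KO, beside 14% of 30843.

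The reads of RLTR10B and RLTR10B2 came from few elements. Pieces of RLTR10 LTRs, RLTR10-int and MMERVK10C-int on 1 strand with gaps of at most 500 bases were joined into elements, of which 1020 held a RLTR10B or RLTR10B2 piece. The top 5 elements held 59.5% and the top 10 held 76.9% of the RLTR10B and RLTR10B2 reads in KO Spc, and 9 of these 10 were also among the top 10 in KO Spg and 6 among the top 10 in WT Spc. In WT Spc the top 5 held 46.8% and the top 10 held 64.9%. Most WT Spc reads of the leading elements came from replicate 3, the library that stood apart. It held 698 of 790 at chr1:167397950, 595 of 668 at chr19:8634069 and 265 of 320 at chr1:138803191. The ranking in WT Spc was not repeated without it. Copies in an element with an internal part made up 29.3% of the 1331 RLTR10B and RLTR10B2 copies, yet took 97.1% of their reads in KO Spc, 94.7% in KO Spg, 93.5% in WT Spg and 72.7% in WT Spc. Reads that match several near-identical copies were assigned by the authors' software to the copies they fit, so the split among such copies is uncertain.

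The 3 leading elements lay at chr1:138803191-138809070, chr1:167397950-167401309 and chr19:8634069-8637416, all on the minus strand, and held 16.3%, 16.2% and 15.6% of these LTR reads in KO Spc. The first lies between genes, with Lhx9, a LIM homeobox gene, as the nearest gene start. Its LTR pieces had 6104, 2385, 5044 and 6853 reads in KO Spc, 320 in all WT Spc libraries together, 2706 in KO Spg and 790 in WT Spg. Its copy RLTR10B_dup28 (chr1:138805945-138806267) alone took 39.1% of the RLTR10B reads of KO Spc, with 5883, 2307, 4894 and 6656 reads in KO and 36, 15, 263 and 4 in WT Spc. RLTR10B_dup28 lies between the outermost long LTRs of this element, RLTR10B_dup30 and RLTR10B_dup26, so the joined pieces need not be 1 provirus. The same element holds RLTR10-int_dup3, RLTR10-int_dup149 and RLTR10-int_dup150, the last of which had 2785, 746, 1804 and 2457 reads in KO Spc and 0, 0, 34 and 0 in WT (limma adjusted p = 0.000926). In all of them KO replicate 2 was lowest and WT replicate 3 highest.

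Other copies were listed at or near 0 in the WT Spc libraries. RLTR10B2_dup366 (chr8:40144594-40144924, intergenic) had 1461, 448, 1227 and 2025 reads in KO Spc against 0 in all 4 WT libraries, at least 284-fold higher against a floor of 3 reads per library (limma adjusted p = 2.39e-05). RLTR10B2_dup592 (chr12:74310419-74310751) had 465, 42, 395 and 433 reads against 0, at least 73.8-fold higher (0.000178). RLTR10F_dup27 (chr1:104280138-104280308) had 154, 77, 135 and 205 reads against 0, at least 31.3-fold higher (5.74e-05), and took 54.2% of the RLTR10F reads of KO Spc. RLTR10B2_dup112 (chr3:37390591-37390923), in an intron of Fgf2 on its opposite strand, had 706, 410, 449 and 789 reads in KO and 0, 0, 3 and 0 in WT (0.000167). Fgf2 codes for a fibroblast growth factor. These copies had reads in KO Spg as well, such as 162, 401 and 208 for RLTR10B2_dup366, with 31, 0 and 38 in WT Spg. The values at or near 0 are those of single pieces. In the elements of RLTR10B2_dup366, RLTR10B2_dup592 and RLTR10B2_dup112, MMERVK10C-int had 120, 720 and 355 reads in WT Spc. In KO Spc it had 24999, 42192 and 28250 reads there.

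Among the copies with the highest TPM were short pieces, for which few reads give a high value per base. RLTR10B_dup453 (34 bases) and RLTR10B2_dup51 (42 bases) had 1598, 610, 1674 and 1176 and 691, 237, 633 and 664 reads in KO Spc, and at most 72 and 98 in a WT Spc library (both in replicate 3). Their limma adjusted p was 0.00711 and 0.0227. RLTR10B_dup453 lost its call without any 1 of the 4 KO Spc libraries or without WT Spc replicate 1 or 4 (0.0184 to 0.0278) and with a pseudocount of 0.01 (0.0376). RLTR10B2_dup51 passed without WT Spc replicate 3 (0.00431), with a pseudocount of 1 (0.0035), with TPM scaled to genes (0.00577) and by edgeR on the recovered reads (0.000588). RLTR10B_dup454 (42 bases), next to RLTR10B_dup453 in the same provirus on chr19, had 0, 0, 0 and 832 reads in KO Spc and did not pass (0.615). In RLTR10B2_dup832, the 3′ LTR of that provirus, the reads were 3212, 1215, 2900 and 3899 in KO and 20, 21, 335 and 11 in WT Spc (0.00124). RLTR10-int_dup1801 (chr11:98067790-98067982) had 247, 367 and 171 reads in KO Spg and 147, 146 and 290 in WT Spg, and 73, 169, 173 and 83 in KO Spc and 10, 15, 26 and 2 in WT Spc. It was above WT in each KO Spc library and did not pass by limma (0.0151), whereas edgeR on the recovered reads called it (0.00057).

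In elements with at least 2 long LTRs, more of the reads on the outermost 2 lay on the 3′ LTR. There were 74 elements with at least 2 RLTR10B or RLTR10B2 LTRs of at least 250 bases. In KO Spc, 36 of them had at least 100 reads on the outermost 2, and 30 of the 36 had more on the 3′ LTR. The 3′ LTRs held 76.1% of the reads on these outermost LTRs. Long LTRs between them were left out. An example is RLTR10B_dup28, with 19740 reads in KO Spc, between outermost LTRs with 2 and 641 reads. In the element on chr16 (start 69094800), the 5′ LTR had 161 and the 3′ LTR 7274 reads, and in that on chr1 at 167397950 they had 6234 and 11743.

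**Figure D3:**
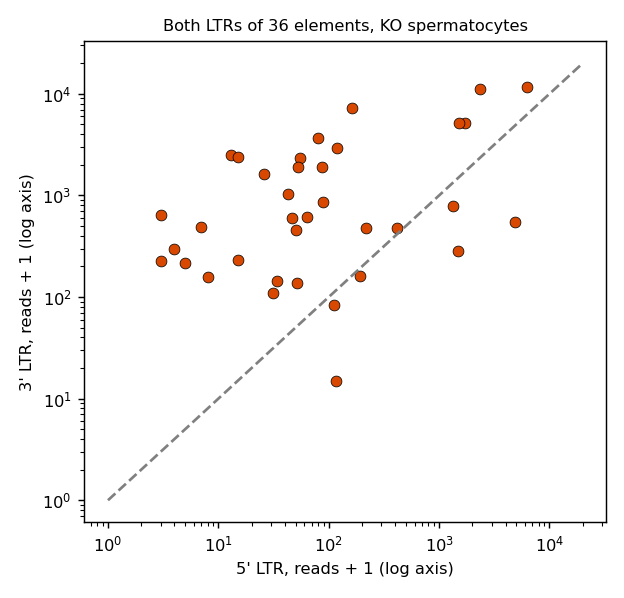
Reads plus 1 (log axes) on the outermost 5′ and 3′ LTRs of the 36 RLTR10B or RLTR10B2 elements with at least 100 reads on them in the 4 KO Spc libraries together, 1 point per element, with a dashed line of equal reads. LTRs between the outermost ones, such as RLTR10B_dup28, are not included. In 30 of the 36 elements the point lies above the line.

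Some RLTR10B and RLTR10B2 elements hold the internal part MMERVK10C-int, which RLTR10C elements also hold, and its reads were split by the LTR of their element. The split was chosen after the data had been seen and has no test. Internal parts with RLTR10B or RLTR10B2 LTRs (442 copies in 136 of the 1020 elements above) were at 473, 561 and 359 CPM in KO Spg, 302, 156 and 140 in WT Spg, 3278, 1081, 2895 and 3693 in KO Spc and 22.8, 32.7, 303 and 21.3 in WT Spc. Those with RLTR10C LTRs (1341 copies in 330 elements) were at 1781, 2732 and 1516 in KO Spg, 194, 152 and 229 in WT Spg, 706, 1123, 1219 and 732 in KO Spc and 29.3, 28.2, 73.7 and 28.0 in WT Spc. The share of MMERVK10C-int reads with RLTR10B or RLTR10B2 LTRs was 17.7% in KO Spg and 71.6% in KO Spc, and that with RLTR10C LTRs was 76.5% and 25.4%. The log2 ratio of the former to the latter was 3.53 higher in KO Spc than in KO Spg, and 3.23 to 4.02 higher when each library was left out in turn. 

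**Figure D4:**
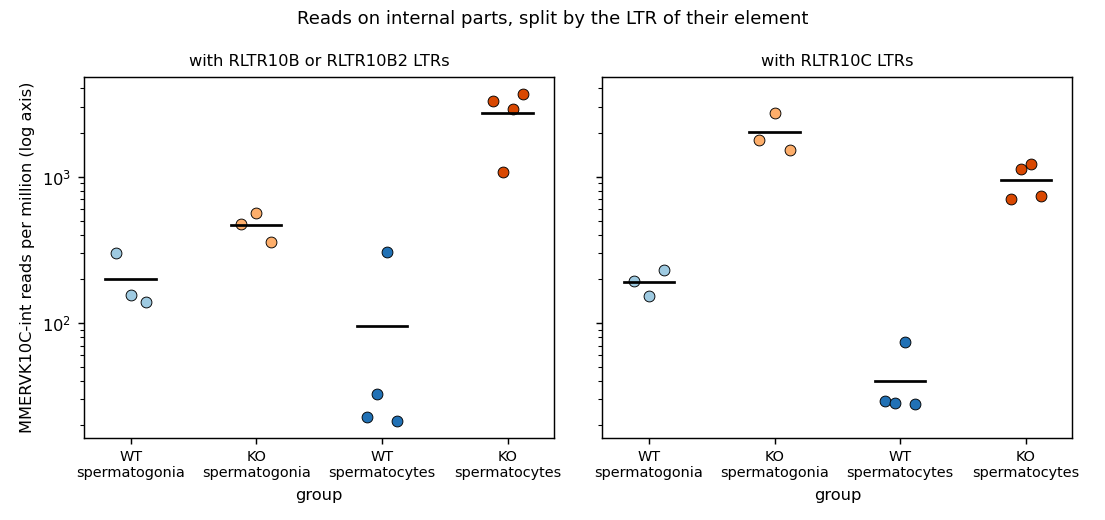
MMERVK10C-int CPM (log axis) in each library, split by whether the element has RLTR10B or RLTR10B2 LTRs (left) or RLTR10C LTRs (right), with a line at each group's mean. With RLTR10B or RLTR10B2 LTRs the KO Spc libraries (1081 to 3693) lie above the KO Spg libraries (359 to 561), and with RLTR10C LTRs they lie below them (706 to 1219 against 1516 to 2732).

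The copies with the largest falls in KO Spc were read in WT Spc. RLTR10D2_dup160 (chr11:103449761-103450115, intergenic) had 231, 588, 372 and 245 reads in WT Spc, or 94.8% of all RLTR10D2 reads of that group, and 2, 0, 0 and 0 in KO Spc (limma adjusted p = 8.04e-05). In WT Spg it had 27, 88 and 0 reads and in KO Spg 0 in each library. The other RLTR10D2 copies together had 20, 17, 29 and 12 reads in WT Spc, 62, 122, 95 and 57 in KO Spc, 72, 53 and 89 in WT Spg and 120, 79 and 90 in KO Spg. Without RLTR10D2_dup160 the subfamily was thus not lower in KO Spc, nor higher in WT Spc than in WT Spg. RLTR10B2_dup236 (chr5:136917391-136917739) had 84, 43, 45 and 55 reads in WT Spc and 0 in each KO library, at least 29.6-fold lower in KO (0.000138), and RLTR10B_dup394 (chr15:62949593-62949855) had 20, 49, 30 and 25 against 0, at least 15.8-fold lower (0.000179). RLTR10B2_dup786 (chr17:66167946-66168293) had 58, 95, 69 and 41 reads in WT and 0, 1, 0 and 0 in KO (0.000207). RLTR10B_dup118, in an intron of Snrnp40 (a component of the spliceosome) on its strand, had 132, 162, 51 and 76 reads in WT and 2, 0, 2 and 4 in KO (0.000816). RLTR10_dup1407, in an exon of the RNA gene Gm43622 on its strand, had 76, 51, 35 and 59 against 0, at least 29.1-fold lower (0.000199), and its reads cannot be told from those of the gene.

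Genes that begin in a RLTR10B or RLTR10B2 LTR were mostly higher in WT Spc. By GENCODE M21, 19 genes start inside such a copy, 13 on the opposite strand to the LTR and 6 on the same strand, and they were singled out after the data had been seen. From WT Spg to WT Spc, 12 of the 14 tested rose and none fell, beside 29.2% of 24340 genes that rose and 23.3% that fell. Between KO and WT Spc, 13 of the 15 tested were lower in KO and 1 was higher, beside 30.7% of 21919 genes lower and 28% higher. The median log2 fold change was 4.85 for the former and -4.78 for the latter (-4.84 with groups of at most 3 counts in each library set at 3), while over all genes it was 0.02 and 0.11. A gene silent elsewhere enters these counts only through WT Spc, where it has to be higher. Without the WT Spc libraries, 7 of the 14 would have passed the filter on counts, of which 6 rose (25.7% of 22711 such genes), and 6 of the 15, of which 5 were lower in KO (24.2% of 18897). On the opposite strand, 9 of 10 were higher in WT Spc than in WT Spg and 10 of 11 were lower in KO Spc. On the same strand the numbers were 3 of 4 and 3 of 4. In Spg, 6 could be tested and none differed between KO and WT by edgeR, with 3 at an unadjusted p under 0.05 and 2 called by DESeq2. Of all genes, edgeR called 0.0436% of 20659, 7.3% had an unadjusted p under 0.05 and DESeq2 called 2.49%. The pachytene markers above move with both comparisons, and the part of cell stage in them cannot be told apart from that of genotype or of sorting.

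1700010B08Rik, a protein-coding gene, had the highest level of them. It stood at 437, 260, 149 and 417 CPM in WT Spc, at 1.23, 0.215, 0.82 and 0.652 in KO Spc, at 2.32, 12.2 and 1.06 in WT Spg and at 0.514, 0.194 and 0.213 in KO Spg. The log2 fold change was -8.75 ± 0.65 (SE) in KO Spc (edgeR adjusted p = 5.45e-06) and 5.93 ± 0.88 from WT Spg to WT Spc (7.42e-05). Nmnat3, an enzyme of NAD synthesis in mitochondria, stood at 35.9, 38.8, 21.9 and 33.3 CPM in WT Spc and at 8.43, 9.96, 9.53 and 8.57 in KO Spc (-1.81 ± 0.27, 0.000257), and at 9.28 to 12.2 in WT Spg. The RNA gene Gm19589 stood at 22.3, 10.2, 9.63 and 21 CPM in WT Spc and at 0.322 to 1.05 in KO Spc (-4.57 ± 0.54, 6.77e-05). Gm10750 (2.83 to 7.69 CPM in WT Spc), Vmn1r181, a member of the vomeronasal receptor family (0.482 to 2.96 CPM), and 1700016K05Rik (4.96 to 10.2 CPM) were at or below 0.0763 CPM in every KO Spc library. Gm15389, on the strand of its LTR, stood at 4.1 to 11.4 CPM in WT Spc and 0.222 to 1.43 in KO Spc (-3.57 ± 0.60, 0.000542). In WT Spc, replicate 3 was the lowest library for 1700010B08Rik, Nmnat3, Gm19589, 1700016K05Rik and Gm15389, and in WT Spg replicate 2 was highest for these 5 genes.

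The exception among these genes was Gm42923, which starts in RLTR10B2_dup115 on its own strand, 4178 bases from RLTR10B2_dup112. It stood at 18.8, 8.26, 9.84 and 21.1 CPM in KO Spc and at 0.0926, 0.121, 0.383 and 0 in WT Spc (6.54 ± 0.83, edgeR adjusted p = 0.000102). The reads of that gene and of its LTR cannot be told apart. The LTRs themselves had few reads on their own strand where the gene lies opposite. The copy at 1700010B08Rik had 18 reads in the 4 WT Spc libraries and 2 in KO Spc, and the copies at Nmnat3, a piece of 42 bases, and at Vmn1r181 had 0 in all libraries.

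**Figure D5:**
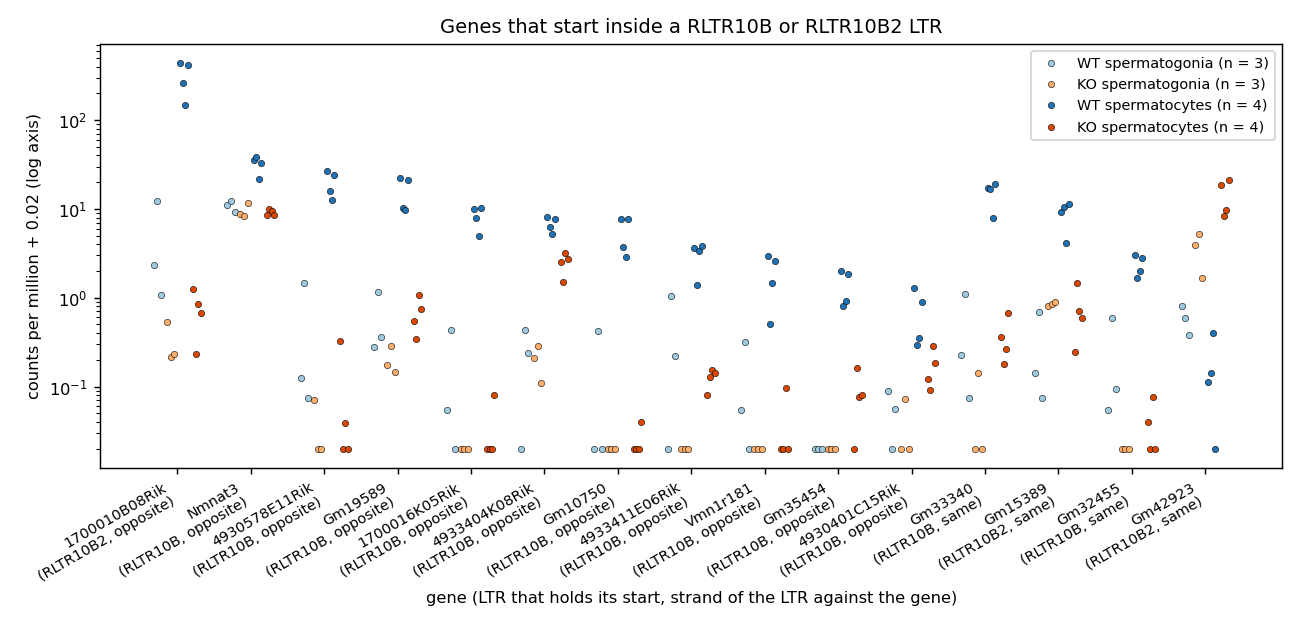
CPM plus 0.02 (log axis) in each library for the 15 genes that start inside a RLTR10B or RLTR10B2 LTR and were tested in Spc, ordered by strand and by level in WT Spc. WT Spc points lie above KO Spc points for 13 called genes, such as 1700010B08Rik (149 to 437 against 0.215 to 1.23 CPM), and below them for Gm42923.

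RefSeq promoter windows gave a similar set. Of 32851 windows, 46 overlapped a RLTR10 copy, and 39 genes had at least 100 bases in common with one, 18 of them with RLTR10B or RLTR10B2. Of these 18, 8 could be tested between WT Spg and WT Spc and all 8 were higher in WT Spc, and 9 could be tested in Spc, of which 8 were lower in KO (29.2% and 30.7% of all genes, as above). In each comparison 4 of them would have passed the filter without the WT Spc libraries, and all 4 were called. Among the 4 testable genes on other RLTR10 subfamilies, Cdkl4, a kinase gene that starts opposite to a RLTR10A copy, stood at 222, 219, 104 and 214 CPM in WT Spc and 0.801 to 16.4 in WT Spg. 1700025F24Rik, opposite to a RLTR10D copy, stood at 37.0, 31.9, 19.0 and 38.7 CPM in WT Spc and 0.218 to 2.63 in WT Spg. The polarity gene Pard3, on the strand of a RLTR10A copy, did not pass between the WT stages (-0.55, adjusted p = 0.304), nor did Gm37116 (-0.24, 0.697). In KO against WT Spc, Cdkl4 and 1700025F24Rik were lower (-6.37 and -7.84), Pard3 was higher (2.02, adjusted p = 0.00477) and Gm37116 did not pass (1.04, 0.0551).

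Of the 14 windows on RLTR10B or RLTR10B2 opposite to the gene, 13 held AACTG at least 3 times on the gene's strand, against 0.612% of all 32851 windows. All 14 held it at least once on that strand, against 26.0% of all windows. The 14 windows belong to 13 genes, since Gm35454 has overlapping windows. Their LTRs share much of their sequence, as given above for those printed, so the windows are not independent observations. The shares describe the LTR sequence and not the level of the genes. Gm42279 and Gm35444, which could not be tested, had 4 matches each. Of the 5 windows on the same strand as the LTR, none held AACTG 3 times on the gene's strand. On the other strand, where the LTR's matches then read, 1 of the 5 held it at least 3 times (0.624% of all windows). All 5 held it on at least 1 strand (44.8% of all windows). The palindromic MYB motif AACNGTT was in 0 of the 14 (4.45% of all windows), the cyclic AMP response element TGACGTCA in 0 (1.79%), its part TGACG on either strand in 0 (20.8%) and the palindromic NRF1 motif in 0 (2.92%). The E-box CANNTG was in all 14 (72.3%), and some of its matches overlap AACTG. Both strands were searched, and AACTG was added to the search after the data had been seen. These windows held a median of 4.5 CpG sites and 48.3% G and C, while all windows held 7 and 52.7%.

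Genes near the LTRs were read against the share of all genes. Of 379 genes that start within 10000 bases of a RLTR10B or RLTR10B2 copy, 160 were tested between the WT stages, of which 54 were higher and 27 lower in WT Spc (50.6% beside 52.5% of all genes), with a median log2 fold change of 0.31. Between KO and WT Spc, 101 of 150 differed (67.3% beside 58.8% of all genes), 48 of them higher and 53 lower in KO, with a median of 0.16. The largest rises in WT Spc besides 1700010B08Rik and 1700016K05Rik were in Kcnmb3, a potassium channel subunit (0.693 to 5.28 CPM in WT Spc, at most 0.0199 in WT Spg), Sostdc1, a secreted BMP antagonist (0 to 0.431 against 0), and the olfactory receptor gene Olfr212 (0.362 to 1.17 against at most 0.0199). The largest falls were in Gm36551, Gm15286, Gm15262, the transcription factor gene Tfap4 (23, 24.8 and 34.8 CPM in WT Spg, 0.278 to 5.41 in WT Spc) and Megf6 (15.1, 21 and 30 in WT Spg, 0.348 to 3.5 in WT Spc).

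Of 13 regulators of these elements or of the germline, none differed between KO and WT in Spg by edgeR (1 at an unadjusted p under 0.05, 0 by DESeq2), and in Spc 2 were higher and 3 were lower in KO, beside 28% and 30.7% of all genes. From WT Spg to WT Spc, 2 of the 13 rose, Mybl1 and Trim28 (1.32 on the log2 scale), and 5 fell, Piwil4 (-4.02), Scml2 (-3.29), Morc1 (-1.51), Creb1 (-0.95) and Nrf1 (-0.77), beside 29.2% and 23.3% of all genes. Mybl1, which codes for A-MYB, rose from 45.9 ± 16.8 CPM (SD, n = 3) in WT Spg to 214 ± 37 (n = 4) in WT Spc (log2 fold change 2.22 ± 0.41, edgeR adjusted p = 0.00036), and stood at 141 ± 57.7 CPM in KO Spc (-0.59 ± 0.32 against WT, 0.125). Scml2, a Polycomb-related repressor of the germline, was higher in KO Spc (707 ± 199 against 33.3 ± 37.6 CPM, 4.45 ± 0.71, 0.000396), as was Creb1 (0.80 ± 0.21, 0.00692). Trim28, a corepressor recruited to ERVs by zinc finger proteins, was lower in KO Spc (420 ± 24.7 against 1191 ± 225 CPM, -1.49 ± 0.21, 0.000178), as were Uhrf1, a cofactor of maintenance methylation (-0.78 ± 0.22, 0.00961), and Dnmt3l (-2.45 ± 0.57, 0.00333). The values of Setdb1 (0.04), Ehmt2 (-0.82), Morc1 (1.28), Nrf1 (0.47), Piwil2 (-0.93), Piwil4 (2.81) and Dnmt3c (0.77) did not pass in Spc.

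Over the 14 libraries the subfamilies whose log2 CPM was most like that of RLTR10B, out of 969 outside the members, were L1Md_A (Pearson's r = 0.959), RLTR13C3 (0.952), Lx (0.952), L1_Mm (0.951) and MLT2C2 (0.947). Among the members r was 0.984 for RLTR10-int, 0.977 for RLTR10B2, 0.961 for RLTR10F and -0.572 for RLTR10D2, and for RLTR10C it was 0.714. These correlations describe 4 groups of libraries that share their scaling.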

How the data were processed

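Polyadenylated RNA of sorted Spg and Spc was sequenced in 14 libraries with a stranded kit. The authors trimmed reads with cutadapt 4.0, aligned them to GRCm38 with STAR 2.7.3a, keeping multiple alignments, and deposited the TEtranscripts output as raw counts of genes and TE subfamilies. For each copy the authors deposited TPM from TElocal, which is scaled over TE copies without genes. Their fold changes and p-values (DESeq2 1.44.0) were not used. TPM multiplied by copy length gave whole reads for 100% of values within 0.02, so reads per copy could be recovered. No column was left without a sample.

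Counts were tested with edgeR 4.0.16 (filterByExpr, TMM factors, quasi-likelihood, two-sided, Benjamini-Hochberg over all genes and subfamilies), copies with limma 3.58.1 and DESeq2 1.42.0 as an alternative, in R 4.3.3 and Python 3.11.15 (pandas 2.3.3, numpy 2.4.6, scipy 1.17.1, biopython 1.88). The text names every member, the copies with the largest called changes in each stage and the highest TPM in each group, the nearest genes, 13 regulators, and the largest called neighbours between WT stages. Other genes that start in a copy were chosen after their values were seen. The members and lists were chosen with earlier results of these data known. The edgeR fits of KO against WT within Spg and within Spc were checked on simulated counts with known changes. The limma fits of copies were checked in the same way on simulated TPM. The fits between stages, the interaction, DESeq2, the blocked fits and edgeR on recovered reads were not checked in this way.

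Spg libraries of the same number deviated together (correlations 0.676, 0.179 and 0.249), but KO replicate 2 correlated more with a WT library of another number. The number was therefore taken only as a possible pairing. The main fits were unpaired, and the alternative with the number as a block changed no call in Spg. Libraries of a group came from separate samples by their labels, and p-values measure the spread between these samples. Spc replicates 1 and 4 were more alike than other pairs (chi-square per degree of freedom 11.6 in KO and 14.9 in WT, against 58.2 to 286) but differed beyond sampling noise and were counted separately. Depth was 40555726 to 53323651 counts, and floors of 3 counts cover counting error only. The naming rule also asked for the letters of the copies that rose most, but no genome sequence was used here, so letters come from RefSeq promoter windows of GRCm38.p6 only. Strand was used in counting, but reads of a gene and a copy on the same strand cannot be told apart.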

Additional observations from a re-analysis of the deposited data

Results flagged for a closer look

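In 16 of 46 groups of 4 libraries examined, 1 library lay farther from the rest than Dixon's 95% limit, which chance exceeds in about 1 group in 20. In WT Spc this was replicate 3 for RLTR10B (30.4 CPM), RLTR10B2 (40.2), RLTR10-int (60.0) and RLTR10A (8.62), and replicate 2 for RLTR10D2 (15.3). In reads of copies it was WT Spc replicate 3 for RLTR10B_dup453 (72), RLTR10B2_dup51 (98), RLTR10B_dup454 (70), RLTR10B2_dup832 (335), RLTR10B_dup28 (263), RLTR10-int_dup3 (392), RLTR10-int_dup150 (34) and RLTR10-int_dup149 (273). In KO Spc it was replicate 2, the lowest, for RLTR10B2_dup51 (237) and RLTR10B2_dup592 (42), and replicate 4 for RLTR10B_dup454 (832). WT Spc replicate 3 also had the lowest pachytene sum (8770 CPM) and the highest early meiotic (2368) and spermatid (1458) sums of its group, and their part in these values was not tested.

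The KO effect differed between Spc and Spg, by the interaction term, for RLTR10B (log2 difference 2.56), RLTR10B2 (3.28), RLTR10-int (1.56) and RLTR10D2 (-2.43, a value that includes RLTR10D2_dup160, with 1436 of the 1514 RLTR10D2 reads of WT Spc). None of these passed with p adjusted over TE subfamilies alone (0.0206 to 0.0338), and with Spc replicates 1 and 4 summed only RLTR10D2 passed. Scaled by library totals, RLTR10D2 did not pass (-1.68, adjusted p = 0.0328).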

How the results depend on the processing

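The count of RLTR10 subfamilies called in Spc stayed within 1.5 times that of the main fit under all alternatives run, and RLTR10B, RLTR10B2, RLTR10F, RLTR10-int and RLTR10D2 kept their direction in them. DESeq2 called 1 subfamily in Spg, 3 between the WT stages and 4 between the KO stages. Library totals gave 3 between the WT stages and 0 between the KO stages. With Spc replicates 1 and 4 summed, 1 interaction and 0 KO stage calls were left, and with p adjusted over TE subfamilies alone 0 and 0. Without the 2 libraries that stand apart there were 2 calls between the WT and 4 between the KO stages, and at an adjusted p under 0.05 there were 4 and 4. Leaving out each library gave 1 to 5 interaction calls, 1 to 2 between the WT stages, 0 to 2 between the KO stages, 5 to 6 in Spc and 0 in Spg. The causes of these shifts were not tested.

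For copies in Spg, edgeR on recovered reads (chosen after seeing the data) called 19, a mean TPM of at least 0.1 gave 13, no filter 6 and a pseudocount of 1 gave 3. In Spc an adjusted p under 0.05 gave 275, and leaving out each library 112 to 198. Genes that start within 1000 and 50000 bases of a copy gave 19 and 374 calls in Spc and 13 and 349 between the WT stages, since fewer or more genes are counted. Genes that start in a copy gave 13 to 16 calls in Spc and 8 to 12 between the WT stages when each library was left out, and those with a promoter window 7 to 9 and 6 to 8.

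The log2 ratio of RLTR10B to RLTR10C, KO minus WT in Spc, turned to -1.03 against MMERVK10C-int (exact permutation p = 0.0286, the smallest that 4 against 4 allows, and 0.0857 adjusted over 3 tests) and to -0.091 with replicates 1 and 4 summed, and ran from -0.11 to 0.74 when each library was left out. Fold changes near 0 also changed sign. In the interaction, RLTR10A turned to 0.0207 under library totals and 0.0081 without the 2 libraries. Between the WT stages, RLTR10B turned to -0.64 under library totals, -0.075 without a filter and -0.47 without the 2 libraries, RLTR10 to -0.56 under library totals and RLTR10-int to 0.093 with replicates summed. Between the KO stages, RLTR10E turned to 0.041 with the block and 0.030 with replicates summed, and RLTR10D2 to 0.082 with replicates summed. RLTR10B_dup454 turned to 0.63 in Spc without the 2 libraries. With each library left out, the ranges that crossed 0 were -0.47 to 0.0016 for RLTR10D2 in Spg, -0.47 to 0.28, -0.21 to 0.074 and -0.13 to 0.31 for RLTR10B, RLTR10-int and RLTR10 between the WT stages, -0.025 to 0.26, -0.48 to 0.13 and -0.27 to 0.058 for RLTR10D, RLTR10E and RLTR10D2 between the KO stages, and -0.046 to 0.95 for RLTR10B2_dup51 in Spg.

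The replicate number as a block gave 0 subfamilies between the KO stages and 80 copies in Spc, and changed no other count of calls by over 1.5 times. Same-numbered Spc libraries of KO and WT deviated together only weakly (correlations 0.0564, 0.188, -0.0316 and 0.105), so outside Spg these libraries share only a number.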
